A study of Bos taurus with 56 samples.

Results

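In cattle (Bos taurus) oocytes and embryos, 3 short stretches of chromosomes 14, 29 and 6 held more ATAC-seq peaks per Mb than their surroundings in most stages, and a set of the peaks there recurred from the oocyte to the elongating embryo. They held a small share of every list, at most 9.21%, and at day 14 the chromosome 14 stretch was less dense than its surroundings. The peaks described here are those whose centre lay on chromosome 14 between 0 and 1 Mb, on chromosome 29 between 30 and 31 Mb, or on chromosome 6 between 5 and 7 Mb of the build UMD3.1. They numbered 2685 of the 673059 peaks in 11 lists, with 1028 in the chromosome 14 window, 926 in the chromosome 29 window and 731 in the chromosome 6 window. The windows were chosen by the numbers of peaks in these same lists, so their density is given as a description, without a test. Sharing between lists tends to be higher where peaks are dense and is described in the same way. The background was the neighbouring 5 Mb on each side, called the flanks below. The chromosome 14 window starts at the first base of the chromosome and has a flank on its higher-coordinate side alone.

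The series compared stages of development, with 56 libraries made from pooled oocytes or embryos. There were 6 libraries of GV oocytes and 5 of MII oocytes. Cleavage stages had 6 libraries at the 2-cell, 6 at the 4-cell, 5 at the 8-cell and 5 at the 16-cell stage. Morulae had 4 libraries derived in vivo and 6 without that label, blastocysts had 4 derived in vivo and 3 without it, and day 14 elongating embryos had 6. The sources used here do not say how the oocytes and the embryos without an in vivo label were produced, nor name a strain or a treatment. Each group has 1 peak list, into which the authors merged the peaks of its libraries, so that replicate spread could not be computed and all differences below are between single lists. The lists ran from 730 peaks in MII oocytes to 372509 in day 14 embryos, and they hold positions without heights or counts, so the depth behind them is unknown.

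ATAC-seq uses a transposase that cuts DNA where it is not packed tightly, and a peak marks a stretch with many cuts. A GV (germinal vesicle) oocyte is arrested in meiotic prophase with its nuclear envelope intact, and an MII (metaphase II) oocyte has condensed its chromosomes for the second meiotic division. The embryo first divides on stored maternal RNA, activates its own genome around the 8-cell to 16-cell stage in cattle, compacts as a morula and forms a fluid-filled blastocyst, which elongates before implantation. Cattle autosomes are acrocentric, so the low-coordinate end of chromosome 14 lies near its centromere. The gene table at hand is of another assembly, and no genome of the build UMD3.1 was used here, so the windows are described by position, without genes or sequence.

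The 3 windows span 4 Mb, 0.150% of the 2661 Mb that the lists span, and they held much larger shares of the short lists than of the long ones. The windows held 134 of the 4382 GV peaks (3.06%, 95% exact Clopper-Pearson interval 2.57% to 3.61%) and 60 of the 730 MII peaks (8.22%, 6.33% to 10.5%). They held 6.90% of the 2-cell list, 3.41% of the 4-cell list, 0.368% of the 8-cell list and 0.320% of the 16-cell list. Among the later lists, they held 0.296% of the in vivo morula peaks, 0.293% of the morula peaks, 7.31% of the in vivo blastocyst peaks, 9.21% of the blastocyst peaks and 0.193% of the day 14 peaks. These intervals cover counting error only. The number of peaks inside a window varied far less between lists than the lists' lengths did. The longest list was 510 times as long as the shortest, whereas the highest count in a window was 12.8 times the lowest on chromosome 14, 15.5 times on chromosome 29 and 15.4 times on chromosome 6. In the flanks the same ratios were 1185, 785 and 121, but they rested on lowest counts of 2, 2 and 3 peaks. The windows were chosen by their peak numbers in these lists, so this contrast is a description.

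**Figure D1:**
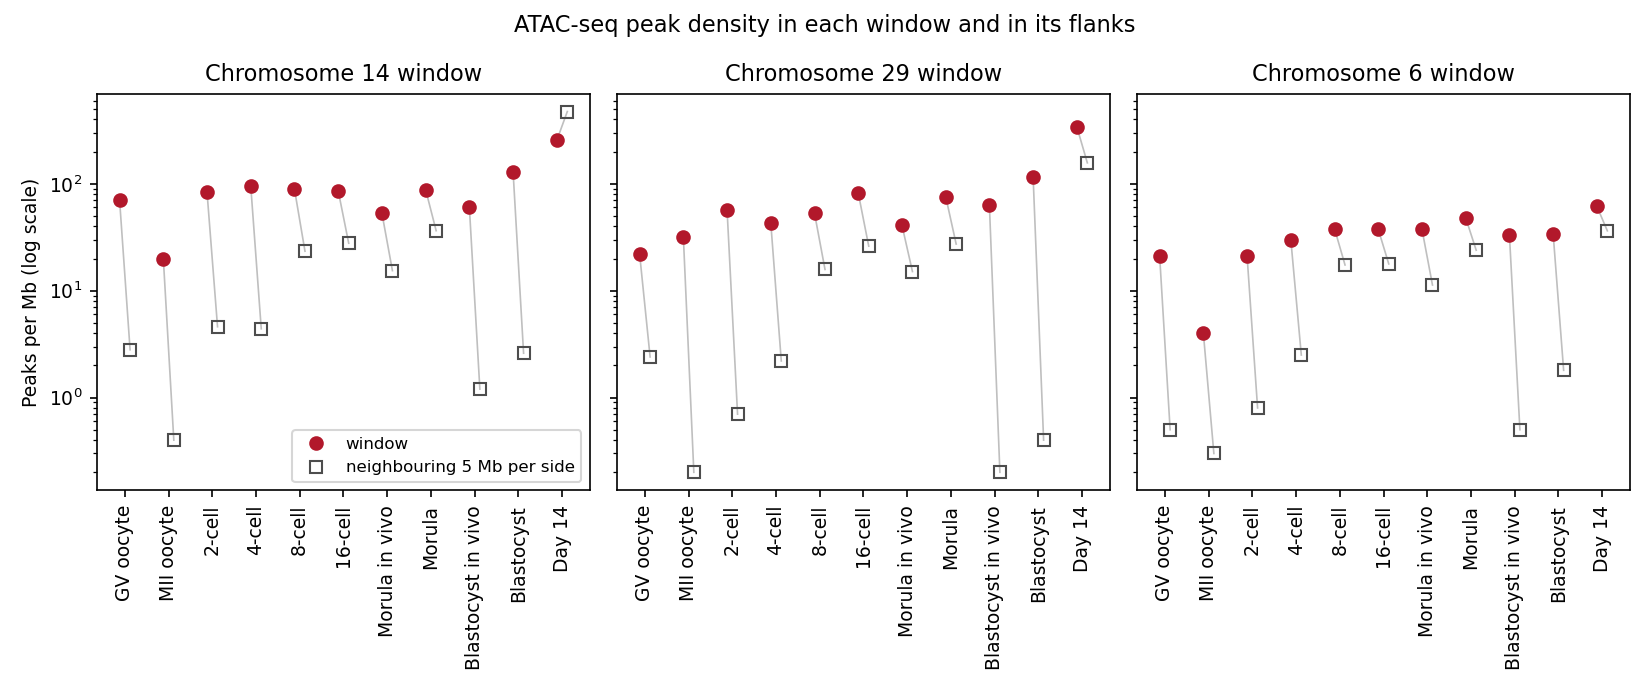
Peaks per Mb (log scale) of each of the 11 merged lists in the window (filled circles) and in its flanks of 5 Mb per side (open squares), with 1 panel per window. Window density lay above flank density in 11 of 11 lists on chromosomes 29 and 6 and in 10 of 11 on chromosome 14, where the day 14 list had 255 peaks per Mb in the window and 474 in the flank.

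The chromosome 14 window was filled from the GV oocyte onward. It held 70 peaks in GV oocytes, 20 in MII oocytes, 83 in 2-cell, 95 in 4-cell, 89 in 8-cell and 86 in 16-cell embryos. It held 53 peaks in in vivo morulae, 88 in morulae, 60 in in vivo blastocysts, 129 in blastocysts and 255 in day 14 embryos. Apart from the low MII count and the high day 14 count, the lists lay between 53 and 129 peaks. Window density was 25 times flank density in GV oocytes (interval 14.0 to 48.1), 18.0 times in 2-cell, 21.6 times in 4-cell, 3.80 times in 8-cell and 3.09 times in 16-cell embryos. It was 3.44 times flank density in in vivo morulae, 2.42 times in morulae, 50 times in in vivo blastocysts (60 peaks in the window against 6 in the flank) and 49.6 times in blastocysts (129 against 13). The MII ratio of 50 rested on 20 peaks in the window and 2 in the flank, with an interval of 12.1 to 441. At day 14 the ratio was 0.538 (0.471 to 0.612), because the flank held 2370 peaks. Against the rest of chromosome 14 in place of the flank, the day 14 ratio was 2.13, and the ratios were 55.2 in GV oocytes, 88.0 in MII oocytes, 82.6 in 2-cell, 42.5 in 4-cell embryos and 123 in blastocysts. With a flank of 2 Mb, they were 12.7 in GV oocytes, 20 in MII oocytes, 7.55 in 2-cell and 10 in 4-cell embryos, 1.35 to 2.05 in the 4 lists from the 8-cell stage to the morula, 20 in in vivo blastocysts and 21.5 in blastocysts. The size of these ratios thus depended on the background, while their direction changed at day 14 alone. The density did not drop to background at the window's edge. The Mb next to the window, from 1 to 2 Mb, was the fullest of the 5 flanking Mb in 10 of 11 lists, with 14 peaks in 2-cell, 66 in 8-cell, 81 in morula and 10 in blastocyst embryos. The 4-cell peak nearest inside the edge spanned chr14:983355-984014 (660 bp) and the nearest outside chr14:1001930-1002339 (410 bp).

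Within the chromosome 14 window of 1 Mb, the first 0.7 Mb held 81.1% to 88.4% of the peaks of each list. That is a modest excess over its share of the length, and the limit was set after the counts were seen. The 100 kb from 0.4 to 0.5 Mb was the fullest in 10 of 11 lists, with 19 GV, 20 2-cell, 23 8-cell, 25 morula, 19 in vivo blastocyst and 28 blastocyst peaks. In MII oocytes the fullest 100 kb ran from 0.5 to 0.6 Mb, with 7 peaks against 4 in the preceding 100 kb. Neighbouring peak centres were a median of 5229 bp apart in GV oocytes against 269971 bp in the flank, and 3214 bp against 8768 bp in morulae. Day 14 was the exception, at 1817 bp in the window and 1021 bp in the flank. Median peak width in the window was 626 bp in GV oocytes, 620 bp in 2-cell and 617 bp in 8-cell embryos, against 442, 419 and 462 bp in the flank. In blastocysts the order was turned, at 287 bp in the window and 362 bp in the flank, as in MII oocytes, at 382 and 494 bp. The longest run of peaks with gaps of at most 10 kb held 11 GV peaks, from 470605 to 501296. The longest 2-cell, 16-cell and in vivo blastocyst runs, of 10, 14 and 10 peaks, started within 300 bp of that position and ended within 100 bp of its end. The longest 8-cell run started at 470318 and ended at 512256. Other lists had their longest run elsewhere, from 572305 in MII oocytes and from 612434 in 4-cell embryos. In both morula lists, blastocysts and day 14 embryos it started between 430838 and 433990. Of these 4 runs, the day 14 run alone reached past 501296, to 501414.

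The widest peaks of most lists marked the same few places on chromosome 14. In 10 of 11 lists the widest peak belonged to 1 of 3 regions that all 11 lists shared, where a region is a stretch of overlapping peaks from any lists. The blastocyst list was the exception, with its widest peak at chr14:133553-135394 (1842 bp), in a region of 8 lists. The broadest shared region spanned chr14:479670-487266. Its peaks summed to 4337 bp in GV, 405 bp in MII, 5335 bp in 2-cell, 6389 bp in 4-cell, 7175 bp in 8-cell and 6064 bp in 16-cell lists. In the later lists they summed to 3447 bp in in vivo morulae, 5381 bp in morulae, 4317 bp in in vivo blastocysts, 5172 bp in blastocysts and 5911 bp at day 14. The MII value stood far below the other 10. The region chr14:840997-845629 showed a like order, with 522 bp in MII oocytes and 2940 to 4340 bp in the other 10 lists. At chr14:551823-554973 the summed width was 1714 bp in MII and 2378 to 2953 bp in the others. Width is a measure of extent, and how far it follows the strength of accessibility could not be examined without heights.

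The chromosome 29 window was narrower in its makeup, since most of its peaks before day 14 lay in 0.2 Mb. It held 22 peaks in GV oocytes, 32 in MII oocytes, 57 in 2-cell, 43 in 4-cell, 53 in 8-cell and 82 in 16-cell embryos. It held 41 peaks in in vivo morulae, 76 in morulae, 63 in in vivo blastocysts, 116 in blastocysts and 341 in day 14 embryos. The flanks were nearly empty in the short lists, with 24 GV, 2 MII, 7 2-cell, 22 4-cell, 2 in vivo blastocyst and 4 blastocyst peaks over 10 Mb. Window density was therefore 9.17 times flank density in GV oocytes (interval 4.90 to 17.1), 81.4 times in 2-cell and 19.5 times in 4-cell embryos, 315 times in in vivo blastocysts (83.7 to 2658) and 290 times in blastocysts (110 to 1082). The MII ratio was 160 (40.8 to 1378). In the 4 lists from 8-cell to morula it was 2.72 to 3.35, and at day 14 it was 2.17. With the higher-coordinate flank alone, the ratio was 7.57 in 8-cell and 4.94 in 16-cell embryos, 8.91 in in vivo morulae, 7.31 in morulae and 580 in blastocysts. Against the rest of the chromosome it was 101 in MII oocytes, 50.5 in 2-cell embryos, 106 in in vivo blastocysts and 122 in blastocysts. With 2 Mb flanks it was 64.0 in MII oocytes and 155 in blastocysts, and with peaks closer than 500 bp joined it was also 155 in blastocysts. Among peaks of 329 bp or more, the median width over all lists, it was 36.4 in 4-cell and 3.84 in day 14 embryos. The stretch from 30.2 to 30.4 Mb held 19 of the 22 GV peaks, 31 of 32 MII, 54 of 57 2-cell, 41 of 43 4-cell and 48 of 53 8-cell peaks. It held 59 of 82 16-cell, 33 of 41 in vivo morula, 55 of 76 morula, 62 of 63 in vivo blastocyst, 115 of 116 blastocyst and 140 of 341 day 14 peaks. The stretch was chosen after these values were seen.

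The first and last peaks of this chromosome 29 stretch lay at like positions in most lists before day 14. Its first peak started between 30225155 and 30226956 in 9 of 11 lists, and at 30208109 in the 2-cell and 30203093 in the day 14 list. Its last peak ended between 30378892 and 30385980 before day 14, and at 30399490 at day 14. The day 14 positions reflect the chosen limits, since day 14 peaks continued past them on both sides. Peaks covered 4.39% of the 200 kb in GV oocytes, 10.4% in MII oocytes, 22.7% in 2-cell, 21.0% in 4-cell, 25.6% in 8-cell and 24.0% in 16-cell embryos. They covered 15.8% in in vivo morulae, 23.7% in morulae, 27.0% in in vivo blastocysts, 42.8% in blastocysts and 30.6% at day 14. The GV list was thus the sparsest there and the blastocyst list the fullest. Median distance between peak centres was 5480 bp in GV, 4090 bp in MII, 2092 bp in 2-cell, 1315 bp in blastocyst and 1126 bp in day 14 lists. With gaps of at most 10 kb, 115 blastocyst peaks formed a single run of 160 kb and 62 in vivo blastocyst peaks a run of 158 kb, whereas the longest GV run held 5 peaks. At day 14 the longest run was 463 kb, from 30003173 to 30466637, and held 292 of the 341 peaks. The blocks on either side of the stretch were filled mainly at day 14, with 123 day 14 peaks between 30 and 30.2 Mb, against 13 peaks in each of the 16-cell and morula lists and 0 in GV, MII, 4-cell and both blastocyst lists.

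Peaks in the chromosome 29 window had a larger median width than those in the flanks in 10 of 11 lists. Median width was 662 bp in 2-cell, 716 bp in 4-cell and 717 bp in 8-cell embryos, against 329, 344 and 426 bp in the flanks. In GV oocytes it was 351 bp in the window and 344 bp in the flanks, and in morulae 514 and 529 bp. In MII oocytes it was 568 and 228 bp and in in vivo morulae 685 and 609 bp. In in vivo blastocysts it was 660 and 443 bp and in blastocysts 510 and 170 bp. The flank values rested on 2 MII, 2 in vivo blastocyst and 4 blastocyst peaks. The widest peak of a list belonged to a region of all 11 lists in 10 cases, with the in vivo morula peak chr29:30317537-30320113 (10 lists) as the exception. The region chr29:30260332-30267706 had the largest summed width over lists. Its peaks summed to 768 bp in GV, 783 bp in MII, 2813 bp in 2-cell, 3060 bp in 4-cell, 3732 bp in 8-cell and 2867 bp in 16-cell lists. They summed to 1408 bp in in vivo morulae, 6149 bp in morulae, 3325 bp in in vivo blastocysts, 6982 bp in blastocysts and 3302 bp at day 14. Both oocyte values lay below those of all embryo lists. At chr29:30310215-30314367 the GV list had 351 bp and the MII list 1469 bp, against 2507 to 3718 bp in embryos. At chr29:30286784-30290569 the oocyte values of 1732 and 1880 bp were closer to the embryo range of 2397 to 3525 bp.

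**Figure D2:**
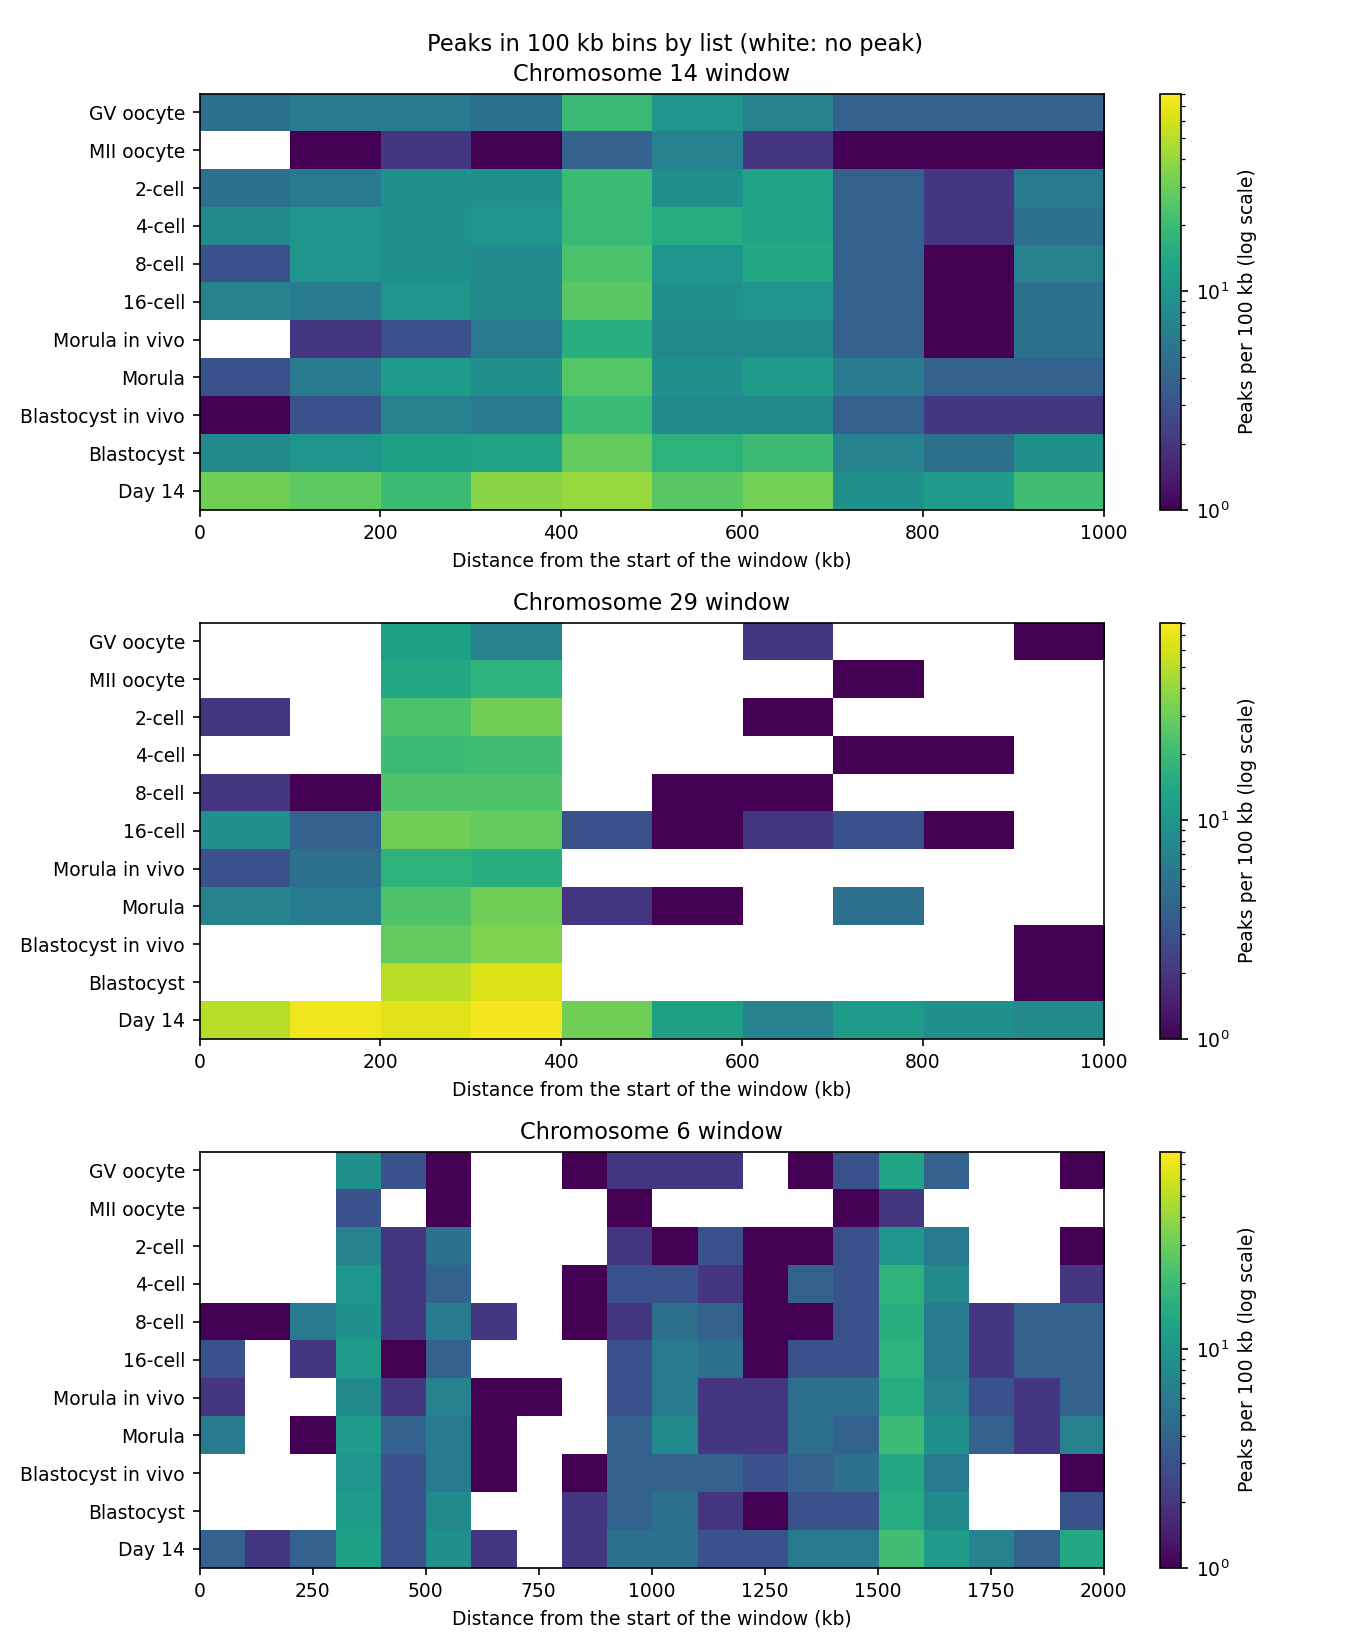
Peaks per 100 kb (colour, log scale, white for no peak) by distance from the start of each window, with 1 row per list in developmental order. On chromosome 29 the bins from 200 to 400 kb were filled in 11 of 11 lists, whereas peaks were spread over the whole chromosome 14 window and over separate blocks of the chromosome 6 window.

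The chromosome 6 window covers 2 Mb and was the least dense of the windows. It held 42 peaks in GV oocytes, 8 in MII oocytes, 42 in 2-cell, 60 in 4-cell, 76 in 8-cell and 75 in 16-cell embryos. It held 75 peaks in in vivo morulae, 96 in morulae, 66 in in vivo blastocysts, 68 in blastocysts and 123 in day 14 embryos. Without the MII list the counts differed by less than 3 times between any lists. Window density was 42.0 times flank density in GV oocytes (interval 16.6 to 136), 26.2 times in 2-cell and 12 times in 4-cell embryos, 66.0 times in in vivo blastocysts and 18.9 times in blastocysts. In MII oocytes it was 13.3 times, from 8 peaks in the window and 3 in the flanks, and from the 8-cell stage to the morula it was 2.01 to 3.32 times. At day 14 it was 1.69 times flank density and 0.734 times the density of the rest of the chromosome. With flanks of 2 Mb per side it was 1.12 times at day 14 and 7.50 times in 4-cell embryos. Against the rest of the chromosome it was 1.36 times in 16-cell embryos, 1.66 times in in vivo morulae, 33.7 times in in vivo blastocysts and 38.8 times in blastocysts. With the higher-coordinate flank alone it was 21.0 times in GV oocytes and 33.0 times in in vivo blastocysts, and among peaks of 329 bp or more 42.0 times in blastocysts and 3.13 times at day 14. Single flanking Mb were nearly empty in GV oocytes, with 2 peaks or fewer each and none in 7 of the 10. In later lists a flanking Mb could be fuller than part of the window. The window's first Mb held 24 16-cell, 24 in vivo morula, 33 morula and 43 day 14 peaks, against 34 16-cell, 36 in vivo morula, 36 morula and 111 day 14 peaks in the Mb from 7 to 8. The window's second Mb held 51, 51 and 63 peaks in the first 3 of these lists and 80 at day 14.

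Peaks on chromosome 6 formed separate blocks. From 5 to 5.3 Mb there was no peak in the oocyte, 2-cell, 4-cell and both blastocyst lists, against 8 in 8-cell, 5 in 16-cell, 2 in in vivo morula, 7 in morula and 10 in day 14 lists. The block from 5.3 to 5.6 Mb held 13 GV, 4 MII, 14 2-cell, 16 4-cell, 17 8-cell and 16 16-cell peaks. It held 17 in vivo morula, 21 morula, 19 in vivo blastocyst, 22 blastocyst and 24 day 14 peaks. Next to it, from 5.6 to 5.9 Mb, no list held more than 4. The block from 5.9 to 6.7 Mb held 27 GV, 4 MII, 27 2-cell, 41 4-cell, 38 8-cell and 44 16-cell peaks, and 41 to 60 peaks in the 5 later lists. Its fullest part, from 6.5 to 6.6 Mb, was the fullest 100 kb of the window in 10 of 11 lists, with 13 GV, 10 2-cell, 17 4-cell, 16 8-cell, 20 morula and 15 blastocyst peaks. These block limits were set after the counts were seen. Median width in the window was 555 bp in GV, 574 bp in 2-cell and 648 bp in 4-cell lists. It was 608 bp in morula and 311 bp in day 14 lists. Flank medians were 820 bp (5 peaks), 534, 394, 517 and 195 bp in the same order. The window median was the larger in 10 of 11 lists. Neighbouring peak centres were closer in the window in 11 of 11 lists. Their median distance was 5654 bp in GV oocytes, against 730772 bp in the flanks, and 5664 bp against 16059 bp in morulae.

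On chromosome 6 the region chr6:5904736-5908049 had the largest summed width among the regions found in all 11 lists. It measured 3172 bp in GV, 545 bp in MII, 2980 bp in 2-cell, 2689 bp in 4-cell, 3193 bp in 8-cell and 2313 bp in 16-cell lists. It measured 2526 bp in in vivo morulae, 3196 bp in morulae, 2287 bp in in vivo blastocysts, 1885 bp in blastocysts and 2233 bp at day 14. The MII list again had the lowest value and the GV list was within the embryo range. The region chr6:6404449-6406389 measured 316 bp in MII and 1203 to 1932 bp in the other lists. The region chr6:5356203-5358227 measured 427 bp in MII and 1047 to 1965 bp in the others. The widest peak lay in a region of all 11 lists in 7 lists. The exceptions were chr6:6485192-6487537 in 4-cell and chr6:6485326-6487592 in 16-cell embryos, chr6:6618530-6620387 in in vivo blastocysts and chr6:6873456-6875473 at day 14, whose region was found in 5 lists.

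Peaks of one stage were found again at the next far more often inside the windows than in the whole lists. A peak counted as found again when the second list had a peak sharing 1 bp or more with it. Of the 134 GV peaks in the windows, 36 (26.9%, interval 19.6% to 35.2%) overlapped an MII peak, against 3.06% of the whole GV list. Of the 60 MII peaks, 53 (88.3%, 77.4% to 95.2%) overlapped a 2-cell peak, against 23.3% of the MII list. Of the 182 2-cell peaks, 146 (80.2%, 73.7% to 85.7%) overlapped a 4-cell peak, against 26.3% of the 2-cell list. Of the 198 4-cell peaks, 154 (77.8%, 71.3% to 83.4%) overlapped an 8-cell peak, against 33.0% of the 4-cell list. The windows thus showed high sharing at each early division, and the GV to MII step was the low one, where the second list is the shortest of the 11. On chromosome 29 this share was 15 of 22 (68.2%), against 14 of 70 on chromosome 14 (20%) and 7 of 42 on chromosome 6 (16.7%). Where 50% of both peaks had to be shared, the GV to MII share was 11.9% and the MII to 2-cell share 35.0%.

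From the 8-cell stage to the blastocyst the shares in the windows lay between 68.1% and 76.5%. A 16-cell peak was found at 163 of the 218 8-cell peaks (74.8%, interval 68.5% to 80.4%), against 45.0% of the 8-cell list. Of the 243 16-cell peaks, 186 (76.5%, 70.7% to 81.7%) overlapped a morula peak, against 47.2% of the 16-cell list. Of the 260 morula peaks, 177 (68.1%, 62.0% to 73.7%) overlapped a blastocyst peak, against 1.13% of the morula list. This share was 43.8% where 50% of both peaks had to be shared. Of the 169 in vivo morula peaks, 129 (76.3%, 69.2% to 82.5%) overlapped an in vivo blastocyst peak, against 1.55% of the in vivo morula list. The windows accounted for 17.7% of all morula peaks found in the blastocyst list. Of the 313 blastocyst peaks, 285 (91.1%, 87.3% to 94.0%) overlapped a day 14 peak, against 59.1% of the blastocyst list.

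In the flanks the shares were close to those of the whole lists where peaks were numerous. They were 46.8% of 449 peaks from 8-cell to 16-cell, 46.7% of 578 from 16-cell to morula and 1.87% of 694 from morula to blastocyst. In the short lists the flanks held few peaks, such as 7 MII peaks, 4 of which overlapped a 2-cell peak. The flank share was 9.3% of 43 peaks from GV to MII and 42.1% of 38 from 2-cell to 4-cell. It was 34.8% of 69 from 4-cell to 8-cell and 68.6% of 35 from blastocyst to day 14. On chromosome 6 the GV to MII share was higher in the flanks, at 2 of 5 peaks, than in the window. High local density favours overlap, and its part in these shares was not tested. Peaks of the 4-cell list covered 8.10% of the window on chromosome 14, 4.26% on chromosome 29 and 2.21% on chromosome 6. In that order, 80.7%, 68.4% and 95.2% of the 2-cell peaks there overlapped a 4-cell peak. On chromosome 29, 41 of the 43 4-cell peaks lay in a stretch of 200 kb, of which they covered 21.0%. Coverage of a whole window therefore does not give the local density of peaks. Matched peaks lay close together, with centres a median of 61.0 bp apart between 8-cell and 16-cell lists in the windows (163 pairs) and 151 bp in the whole lists (26635 pairs). Between 16-cell and morula lists the medians were 56.5 and 178 bp. Other pairs differed less or in the other order, with 78.5 bp in the windows and 85.0 bp in the whole lists from morula to blastocyst, and 154 and 92.8 bp from MII to 2-cell.

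**Figure D3:**
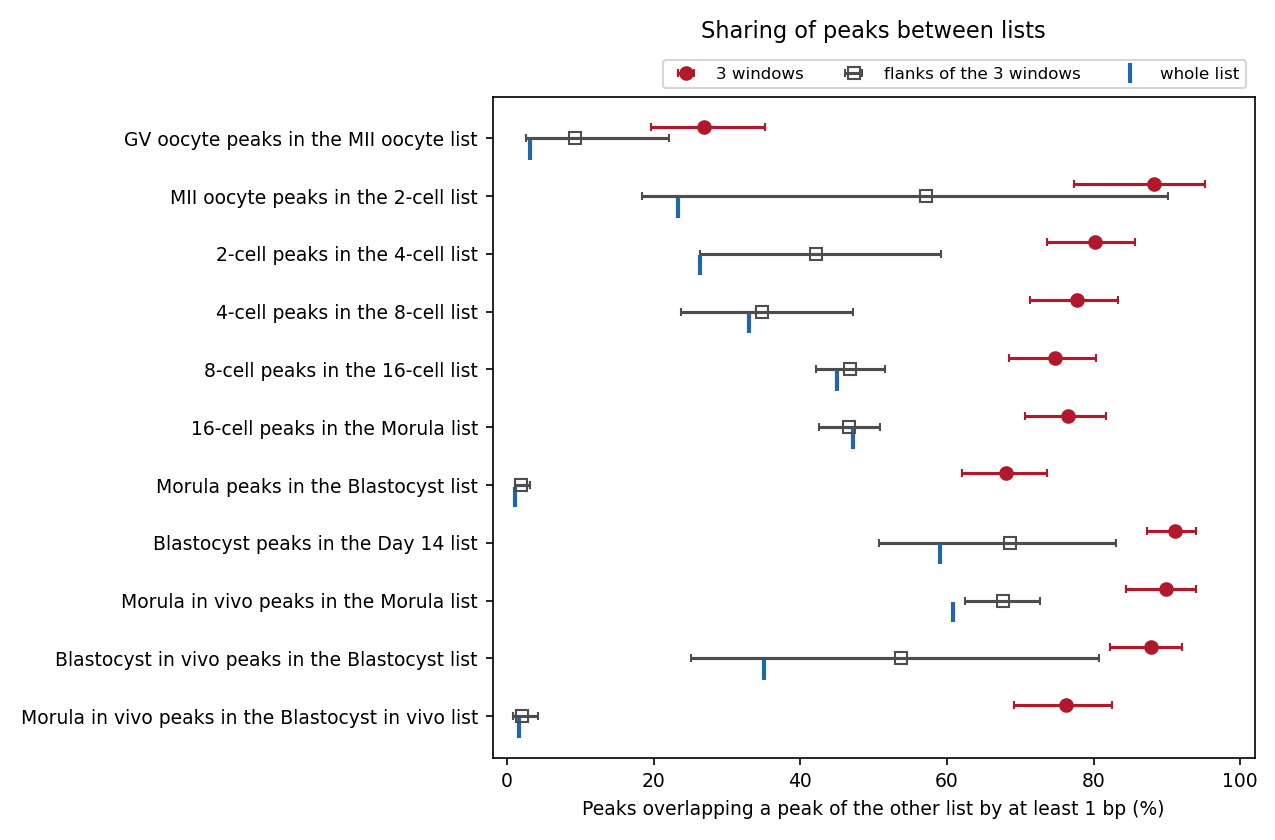
Share of the peaks of a list that overlap a peak of the other list, for the 3 windows together (circles), their flanks (squares) and the whole list (vertical ticks), with 95% exact Clopper-Pearson intervals for windows and flanks. The morula peaks in the windows were found in the blastocyst list in 68.1% of cases, against 1.87% in the flanks and 1.13% in the whole morula list.

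Joining the overlapping peaks of all lists gave 792 regions in the windows, 5049 in the flanks and 482097 in the genome. Regions with a peak in 6 or more of the 11 lists made up 24.2% of the chromosome 14 regions (63 of 260), 11.5% of those of chromosome 29 (41 of 355) and 30.5% of those of chromosome 6 (54 of 177), against 0.49% of all regions and 0.436% of the flanking ones. Joining peaks closer than 500 bp left 27 such regions on chromosome 29. All 11 lists had a peak in 13, 12 and 6 regions of the windows, 3.91% of their 792 regions, against 0.0218% of all regions. These 31 made up 29.5% of the 105 such regions in the genome, and the 122 window regions in 8 or more lists made up 23.2% of 526. At the other end, 445 window regions (56.2%) belonged to a single list, 330 of them to the day 14 list, against 83.0% of all regions. Leaving out the day 14 list, 138 of 462 window regions (29.9%) had a peak in 6 or more of the other 10 lists, against 0.477% of 178289 regions in the genome. Peaks of regions shared by more lists were wider, with a median of 227 bp for regions of 1 list (445 peaks), 342 bp for 2 to 5 lists (533), 591 bp for 6 to 10 lists (1200) and 839 bp for all 11 (507). A wide peak overlaps others more readily, so width and sharing are linked by construction. The regions of 1 list were mostly of day 14, whose whole list has a median peak width of 216 bp. The trend thus also mixes lists of unlike width. Among the 31 regions of all 11 lists, the summed width was lowest in the MII list for 12 of 13 on chromosome 14 and 6 of 6 on chromosome 6, and in the GV list for 11 of 12 on chromosome 29. Their median summed width on chromosome 29 was 672 bp in GV, 882 bp in MII and 2242 bp in 2-cell lists.

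**Figure D4:**
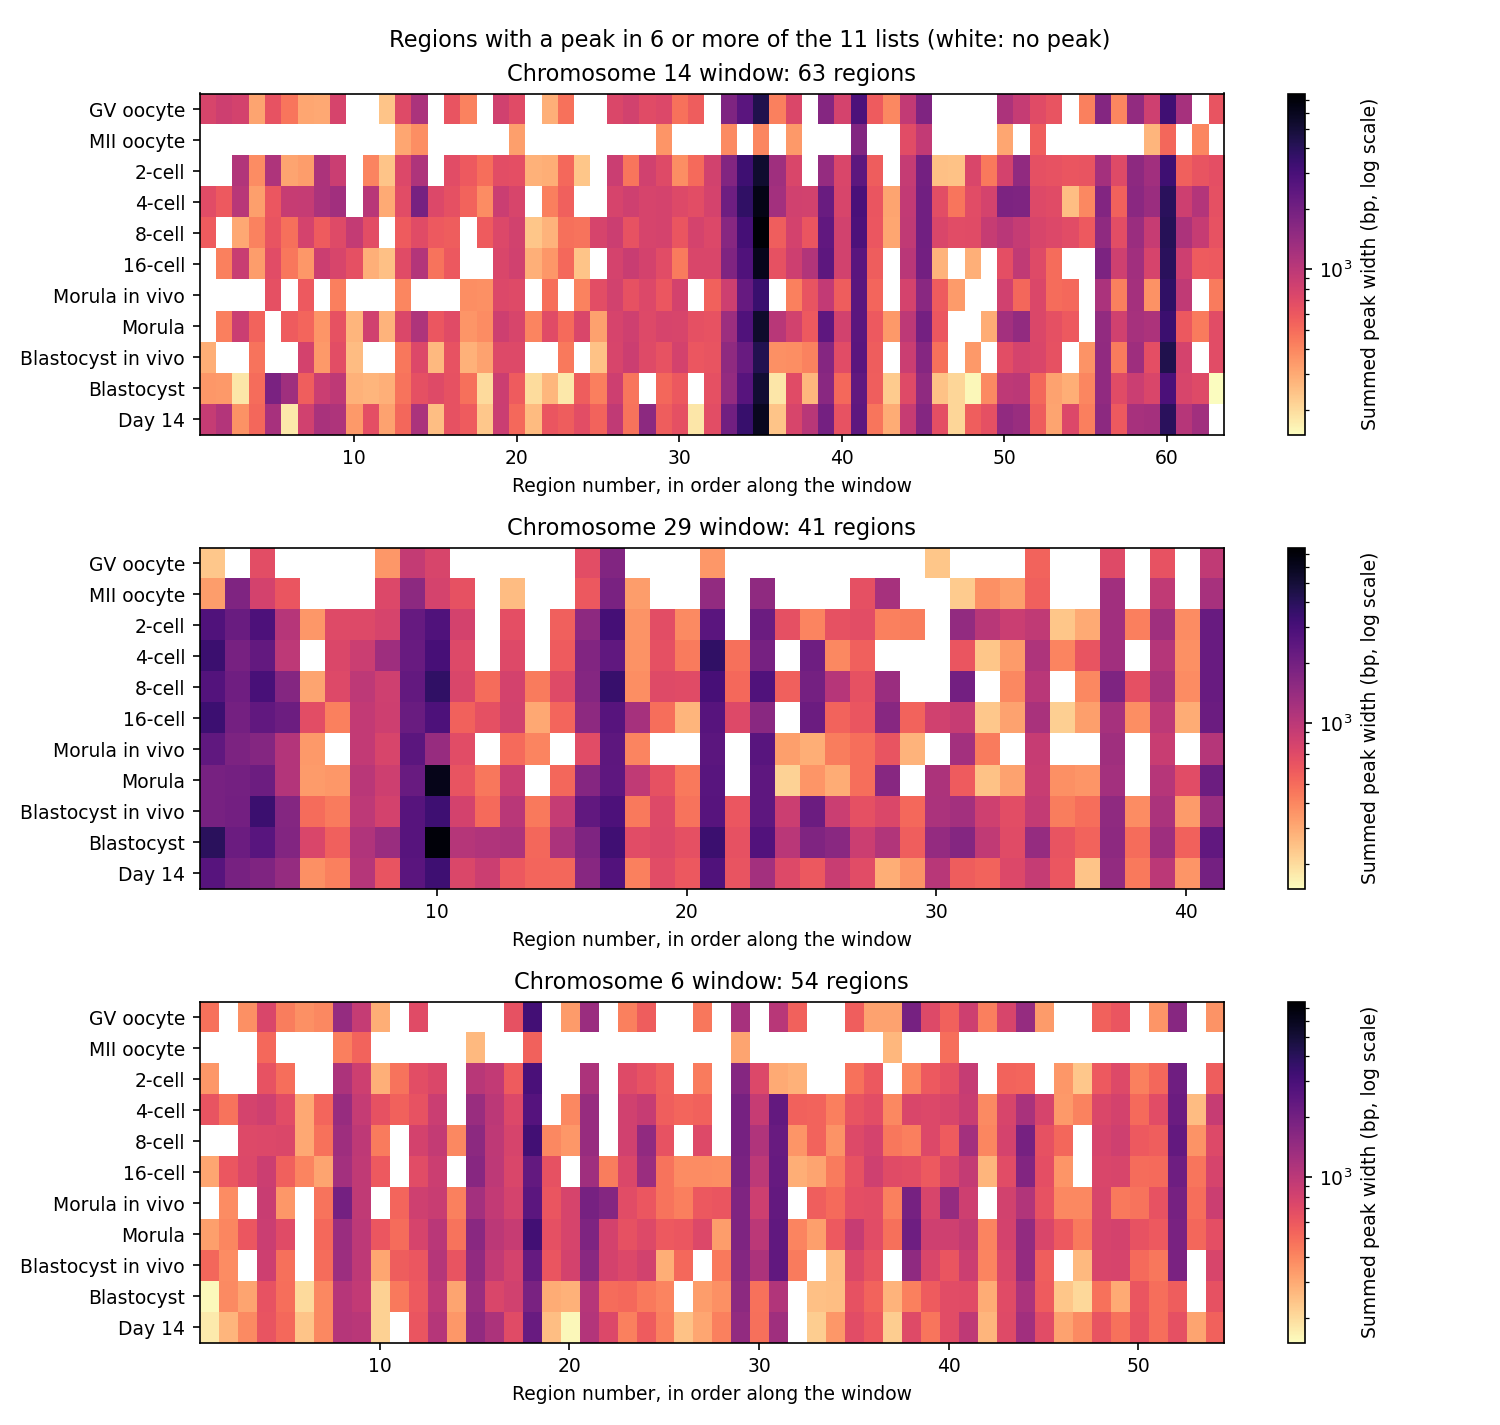
Presence and summed peak width (colour, log scale, white for no peak) of the regions with a peak in 6 or more of 11 lists, in order along each window. The MII row is mostly white on chromosomes 14 and 6, where it has 15 of 63 and 8 of 54 regions, and the GV row on chromosome 29, with 13 of 41 regions.

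Seen list by list, most peaks in the windows recurred widely. Among GV peaks, 116 of 134 (86.6%) overlapped peaks of at least 5 other lists, against 21.5% of the GV list. The shares were 90% against 26.7% in MII oocytes, 81.9% against 29.9% in 2-cell, 78.3% against 23.6% in 4-cell, 72.0% against 3.58% in 8-cell and 68.3% against 2.83% in 16-cell embryos. They were 78.1% against 3.5% in in vivo morulae, 63.8% against 2.49% in morulae, 83.1% against 30.6% in in vivo blastocysts and 62.0% against 26.1% in blastocysts. At day 14 the share was 26.7% in the windows and 0.632% in the whole list. In the flanks the share lay below that of the windows in every list, but it was higher in the short lists than in the long ones. It was 27.9% of 43 GV, 57.1% of 7 MII and 39.5% of 38 2-cell peaks. It was 69.2% of 13 in vivo blastocyst peaks (interval 38.6% to 90.9%) and 42.9% of 35 blastocyst peaks. From the 8-cell stage to the morula it was 3.17% to 4.69%, and at day 14 it was 0.535%. The lowest blastocyst share lay on chromosome 29, where 49 of 116 peaks (42.2%) recurred in this way and 19 regions were found in the blastocyst list alone. That share was close to the 42.9% of the blastocyst peaks in the flanks of all windows together.

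Regions with a peak in oocytes mostly had one in embryos too. Of the 792 window regions, 131 had a peak in a GV or MII list, and 120 of these had a peak in at least 1 embryo list. The remaining 11 (8.40%) had none, against 43.2% of the 4854 oocyte regions of the genome and 34.8% of the 46 in the flanks. Of the 131, 113 (86.3%) had a peak in a blastocyst list, against 10.1% in the genome, and 75 (57.3%) had a peak in all 9 embryo lists, against 4.57% (222) in the genome and 4 of 46 in the flanks. By first appearance in developmental order, 98 further window regions came with the 2-cell or 4-cell lists, 96 with the 8-cell or 16-cell lists, 137 with the morula or blastocyst lists and 330 with day 14. First appearance in oocytes thus held for 16.5% of the window regions, 0.911% of the 5049 flank regions and 1.01% of the 482097 in the genome. For the 2-cell or 4-cell stage the shares were 12.4% in the windows, 1.53% in the flanks and 1.43% in the genome, and for the 8-cell or 16-cell stage 12.1%, 14.4% and 20.1%. For morulae or blastocysts they were 17.3% in the windows, 9.47% in the flanks and 14.5% in the genome, and for day 14 41.7%, 73.7% and 63.0%.

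The oocyte stages differed in which window they filled. MII oocytes held fewer peaks than GV oocytes on chromosome 14 (20 against 70) and chromosome 6 (8 against 42), and more on chromosome 29 (32 against 22), while the whole lists held 730 MII and 4382 GV peaks. Of the 1 Mb windows of the genome with 20 or more peaks in these 2 lists together, 2 of 6 held more MII than GV peaks. These 6 include every Mb of the windows described here, and the chromosome 29 window is among the 2. They are therefore not a separate background. On chromosome 29, 8 regions were found in all lists except the GV list and none in all lists except the MII list. They lay between 30231985 and 30352392, and the widest of them, chr29:30317478-30320541, had 1529 bp of peaks in MII oocytes and 1262 to 2818 bp in embryos. On chromosomes 14 and 6 the order was turned, with 16 and 19 regions missing from MII oocytes alone and 0 and 1 missing from GV oocytes alone. In the whole genome, with the windows included, 124 regions were missing from a single list, in 95 cases from the MII list and in 22 from the GV list. Of the 124, 45 lay in the windows.

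Another set of 10 window regions had a peak in each of the 9 embryo lists and no GV or MII peak, out of 95 such regions in the genome. They were named after their values were seen. On chromosome 14 they were chr14:454067-454904 and chr14:619116-619863. On chromosome 29 they were chr29:30248414-30249532, chr29:30327380-30329969 and chr29:30331486-30333095. On chromosome 6 they lay at chr6:5565337-5566422, chr6:5595243-5596400, chr6:6212334-6212972, chr6:6440697-6441989 and chr6:6613137-6613797. The region chr6:5595243-5596400 kept a like width throughout, at 951 bp in 2-cell, 1011 bp in 4-cell, 978 bp in 8-cell and 992 bp in 16-cell embryos. It measured 951 bp in in vivo morulae, 1003 bp in morulae, 947 bp in in vivo blastocysts, 754 bp in blastocysts and 1158 bp at day 14. By contrast, chr29:30327380-30329969 had its lowest summed width, 293 bp, in in vivo morulae and its highest, 2172 bp, in 16-cell embryos.

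At the morula to blastocyst step 2 of the windows held more peaks in the shorter list. Blastocysts held 129 peaks on chromosome 14 and 116 on chromosome 29, against 88 and 76 in morulae, although the morula list is 26.2 times as long. On chromosome 6 blastocysts held 68 peaks and morulae 96. The in vivo lists showed the same order, with 60 blastocyst peaks against 53 morula peaks on chromosome 14, 63 against 41 on chromosome 29 and 66 against 75 on chromosome 6. More peaks did not always mean more covered length. On chromosome 14 blastocyst peaks covered 56.5 kb and morula peaks 64.4 kb, with median widths of 287 and 636 bp. On chromosome 29 they covered 86.0 and 61.4 kb. In vivo, blastocyst and morula peaks covered 45.1 and 39.2 kb on chromosome 14, and 54.3 and 35.8 kb on chromosome 29. Among 1 Mb windows of the genome with 20 or more peaks in both lists together, 8 of 2101 held more blastocyst than morula peaks, and 7 of 1296 in the in vivo lists. Both counts include the chromosome 14 and 29 windows. The in vivo count also includes the Mb from 5 to 6 of chromosome 6, with 25 blastocyst and 24 morula peaks. The windows were chosen by their peak numbers, so these counts are not a separate background.

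Most in vivo peaks in the windows were also in the list without that label, and a smaller share was found in the reverse direction. Of the in vivo morula peaks in the windows, 152 of 169 (89.9%, interval 84.4% to 94.0%) overlapped a morula peak, against 60.8% of the in vivo morula list. Of the in vivo blastocyst peaks, 166 of 189 (87.8%, 82.3% to 92.1%) overlapped a blastocyst peak, against 35.0% of the in vivo blastocyst list. In the flanks these shares were 67.7% of 341 in vivo morula peaks and 53.8% of 13 in vivo blastocyst peaks. In reverse, 152 of 260 morula peaks (58.5%, 52.2% to 64.5%) overlapped an in vivo morula peak, against 38.3% of the morula list. Of the 313 blastocyst peaks, 182 (58.1%, 52.5% to 63.7%) overlapped an in vivo blastocyst peak, against 30.6% of the blastocyst list, with 51.2% on chromosome 14, 52.6% on chromosome 29 and 80.9% on chromosome 6. By window the in vivo blastocyst share was 91.7% on chromosome 14, 96.8% on chromosome 29 and 75.8% on chromosome 6. In vivo blastocysts had 60, 63 and 66 peaks in the windows of chromosomes 14, 29 and 6, against 129, 116 and 68 in blastocysts, and they had wider peaks, with medians of 642, 660 and 626 bp against 287, 510 and 402 bp. Covered length differed less on chromosome 14, at 45.1 kb in in vivo blastocysts and 56.5 kb in blastocysts, and was higher in vivo on chromosome 6, at 46.3 kb against 31.7 kb. At the start of chromosome 14, in vivo morulae had 0 peaks in the first 100 kb and 2 in the next, against 3 and 6 in morulae, and in vivo blastocysts had 1 and 3, against 8 and 10 in blastocysts.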

How the data were processed

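The 56 ATAC-seq libraries of pooled cattle oocytes or embryos were summarised by the authors in 1 peak list per group. Per the labels, the authors merged the peaks of a stage's libraries. The submitters' processing notes name the build UMD3.1 and, without their roles, HOMER, bedtools, MACS2 and Bowtie2 2.3. The sources used here do not give the calling threshold, the merging rule or any shift of cut sites, each of which can change the number and width of peaks. Each deposited list holds 3 columns, namely chromosome, start and end. Starts were read as counted from 0 and are printed counted from 1, a convention that the lists do not state.

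A peak belonged to a window by its centre. Density ratios are peaks per Mb in the window over peaks per Mb in the flanks, with intervals from the exact Clopper-Pearson limits of the window's share of window and flank peaks. With 1 list per group no test between groups was possible. The members and the windows were chosen with earlier results of these data known. Regions named are the widest peak of each list and, per window, the 3 regions in the most lists, with ties broken by summed width. The design also listed each list's longest run and edge peaks, of which examples are given. Overlap counts recovered all planted overlaps in 10 of 10 simulated pairs of lists, and equalled those of bedtools 2.31.1 in 11 of 11 pairs of deposited lists. Genes and sequence under the windows were not analysed here. Intervals came from scipy 1.17.1 and figures from matplotlib 3.10.9, in Python 3.11.15, with tables read through pandas 2.3.3.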

Additional observations from a re-analysis of the deposited data

How the results depend on the processing

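A change is reported where a share or the ratio of a single list left its 95% interval, or where another value moved by over 1.5 times. The number of lists denser in the window than outside it changed by less than this under every alternative run. With the rest of the chromosome as background, the median density ratio over lists was 42.5 on chromosome 14, against 18.0, and the day 14 ratio changed direction on chromosome 14 (2.13) and on chromosome 6 (0.734). With flanks of 2 Mb per side the medians were 7.55 on chromosome 14 and 7.50 on chromosome 6, against 12 there. Leaving out the day 14 list, an alternative chosen after seeing the data, gave 14.4 on chromosome 29, against 9.17. Of the ratios of single lists, 14 of 32 fell below their intervals with 2 Mb flanks, 5 of 31 lay above them among peaks at least as wide as the median of all peaks, and 0 of 33 moved when peaks had to lie wholly inside. With the rest of the chromosome 5 of 33 were higher, 5 lower and 2 turned, and with joined peaks 1 of 33 was higher and 1 lower. With the higher-coordinate flank alone 5 of 32 were higher. The chromosome 14 ratios among these 32 could not change, since that window has no other flank. Joining peaks closer than 500 bp left 27 regions in 6 or more lists on chromosome 29, against 41, since joined peaks make fewer regions. Requiring 50% of both peaks to be shared lowers shares by construction. They were 11.9% from GV to MII, 35.0% from MII to 2-cell, 61.5% from 2-cell to 4-cell, 64.6% from 4-cell to 8-cell, 61.9% from 8-cell to 16-cell, 61.7% from 16-cell to morula, 43.8% from morula to blastocyst, 65.8% from blastocyst to day 14, 74.0% from in vivo morula to morula, 64.6% from in vivo blastocyst to blastocyst and 68.6% from in vivo morula to in vivo blastocyst. Among wide peaks the shares were 81.9% from 16-cell to morula, 56.8% from morula to blastocyst, 83.1% from blastocyst to day 14 and 77.9% from in vivo blastocyst to blastocyst, and the cause was not tested. The median share of a window's peaks in its longest run was 28.1% on chromosome 14 with gaps of 20 kb, 24.4% with 5 kb and 90.6% with 20 kb on chromosome 29, and 13.3% on chromosome 6 with 5 kb, against 15.3%, 54.4% and 20.6% with 10 kb. Leaving out libraries could not be done, since each list is merged. No paired analysis was possible because each group has 1 merged list and no result comes from a test.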

Other observations

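Set against all 1 Mb windows of each list, the chromosome 14 window ranked 1st by number of peaks in GV oocytes, 2-cell and 4-cell embryos and 2nd in MII oocytes and both blastocyst lists. It ranked 7th in 8-cell embryos, 18th in 16-cell embryos, 131st in in vivo morulae, 28th in morulae and 453rd in day 14 embryos. The chromosome 29 window ranked 1st in MII oocytes and in vivo blastocysts, 2nd in 2-cell embryos and 266th at day 14. It ranked 3rd in 4-cell embryos, 4th in GV oocytes and blastocysts, and 25th to 305th from the 8-cell stage to the morula. Each Mb of the chromosome 6 window ranked 3rd to 15th in the oocyte, 2-cell, 4-cell and blastocyst lists. From the 8-cell stage to the morula its first Mb ranked 571st to 1394th and its second 143rd to 240th. At day 14 they ranked 1910th and 1433rd. These ranks describe the values by which the windows were chosen.

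The order of the 100 kb bins by number of peaks was compared between lists inside each window, as a description over neighbouring bins. The median Spearman's rho over the 55 pairs of lists was 0.81 on chromosome 14 (10 bins), 0.61 on chromosome 29 (10 bins) and 0.71 on chromosome 6 (20 bins). Pairs varied widely, with rho between 0.19 and 0.98 on chromosome 14, 0.12 and 1 on chromosome 29, and 0.48 and 0.97 on chromosome 6. The rho of 1 was that of the blastocyst lists, each with 7 of 10 chromosome 29 bins empty. Bins without peaks are tied, which limits what rho shows in that window. The lowest values were those of MII oocytes with day 14 on chromosome 14 and of GV oocytes with day 14 on chromosome 29. For the 10 pairs with the day 14 list the medians were 0.62, 0.48 and 0.70.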
